A study of Mus musculus with 6 samples.

Results

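The 31 genes described here encode factors of nucleotide excision repair, from damage recognition through transcription factor IIH (TFIIH) and incision to ligation. They were chosen by gene name, and the polymerases of replication, replication factor C (RFC), PCNA and *Lig1* were left out. The trimer RPA, which also serves replication, was kept. All 31 names were found once each among the 43346 rows of the count table, and all 31 passed the filter on low counts that left 17589 genes for testing.

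Polyadenylated RNA was sequenced from primary mouse adult fibroblasts (MAFs), cells grown out of ear tissue from C57BL6/J mice (adult females), in 3 control and 3 senescent samples. Control MAFs were sham irradiated, and senescent MAFs were exposed to X-rays at 20 Gy and cultured for weeks afterwards. Both groups grew at 3% oxygen, received dexamethasone at 100 nM for 2 hours to bring their clocks into phase, and were collected 12 hours later. The sources used here do not state whether the 3 samples of a group came from separate mice or cultures, so p-values measure the spread between these samples, which may be technical.

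Nucleotide excision repair cuts out a short stretch of a DNA strand that carries a bulky lesion, such as those made by ultraviolet light. Lesions are found either anywhere in the genome, by XPC and the UV-DDB complex, or where RNA polymerase II has stalled, by the Cockayne syndrome proteins. Both routes then recruit TFIIH to open the helix, XPA and RPA to verify the damage and hold the open strands, and a pair of nucleases to cut on either side of it, and the gap is refilled and sealed. In nonreplicating cells, sealing is known to rely on DNA ligase III with XRCC1, and in replicating cells also on DNA ligase I.

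Total counts lay between 50288454 and 82229553 per library. Levels are given as CPM, the counts of a gene relative to all counts of its library, with library composition taken into account by edgeR's TMM method. The 10 fibroblast markers summed to 64531 to 66398 CPM in control and 48210 to 53561 CPM in senescent samples, with 3 markers higher and 6 lower, so fibroblast markers were abundant in both groups. Chondrocyte markers summed to 6793 to 7288 CPM in control and 611 to 693 CPM in senescent samples, and 7 of the 8 were lower. Sums for 5 other cell types stayed between 2.53 and 27.6 CPM, and no marker was at 0 in all 6 libraries. The sum of keratinocyte markers was 3.23 to 4.13 CPM in control and 19.2 to 20.1 CPM in senescent samples, that of macrophage markers 8.24 to 9.01 and 18.2 to 21.1 CPM, and that of endothelial markers 2.53 to 2.93 and 8.03 to 8.45 CPM. A change in the share of cells of a type and a change in RNA per cell cannot be told apart in such bulk samples, and the part of these markers' cells in the values given here was not tested. Within each group, every pair of libraries differed by more than counting noise. The median squared difference was 1.77 to 5.33 times the chance value in control and 2.24 to 24.6 times in senescent cells. Senescent replicate 3 lay farthest from the others and, as described after the single genes, was low in GC-rich transcripts.

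Excision repair genes moved in both directions, and most steps held genes that rose and genes that fell. In senescent cells, the 3 genes of the incision nucleases, the recognition genes *Xpc* and *Rad23b* and the Cockayne syndrome genes *Ercc6* and *Ercc8* were higher. Among these, the incision gene *Ercc1* had overlapping groups, and its call was lost under 7 of 14 alternative settings. *Ddb2*, the 3 RPA genes, *Uvssa* and both ligation genes were lower. Of the 31 genes, 25 (80.6%) passed a Benjamini-Hochberg adjusted p of 0.05 in the quasi-likelihood test of edgeR, fitted on and adjusted over all genes tested, where 70.3% of all tested genes did. Of these, 12 were higher (38.7%, against 36.2% of all tested genes) and 13 lower (41.9%, against 34.1%). These shares lay near those of all tested genes and are not read as a property of the 31. Changes over 2-fold were seen in 5 genes (16.1%, against 30% of all tested genes), namely *Ddb2*, *Rpa1*, *Rpa2*, *Rpa3* and *Xrcc1*, and all 5 were lower (12.3% of all tested genes were lower over 2-fold). The methods of the study give an unadjusted p of 0.05 as the limit, and its results print another for this comparison. At an unadjusted p of 0.05, the same 5 genes were counted, against 30.1% of all tested genes. None was higher over 2-fold, as 17.7% of all tested genes were. The median log2 fold change was 0.02 for the 31 genes and 0.01 for all tested genes, the median size of the change was 0.40 and 0.58 on the log2 scale, and the 31 genes ranged from -1.95 (*Rpa2*) to 0.82 (*Xpc*). The groups did not overlap in 24 genes (77.4%, against 75.3% of all tested genes).

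**Figure D1:**
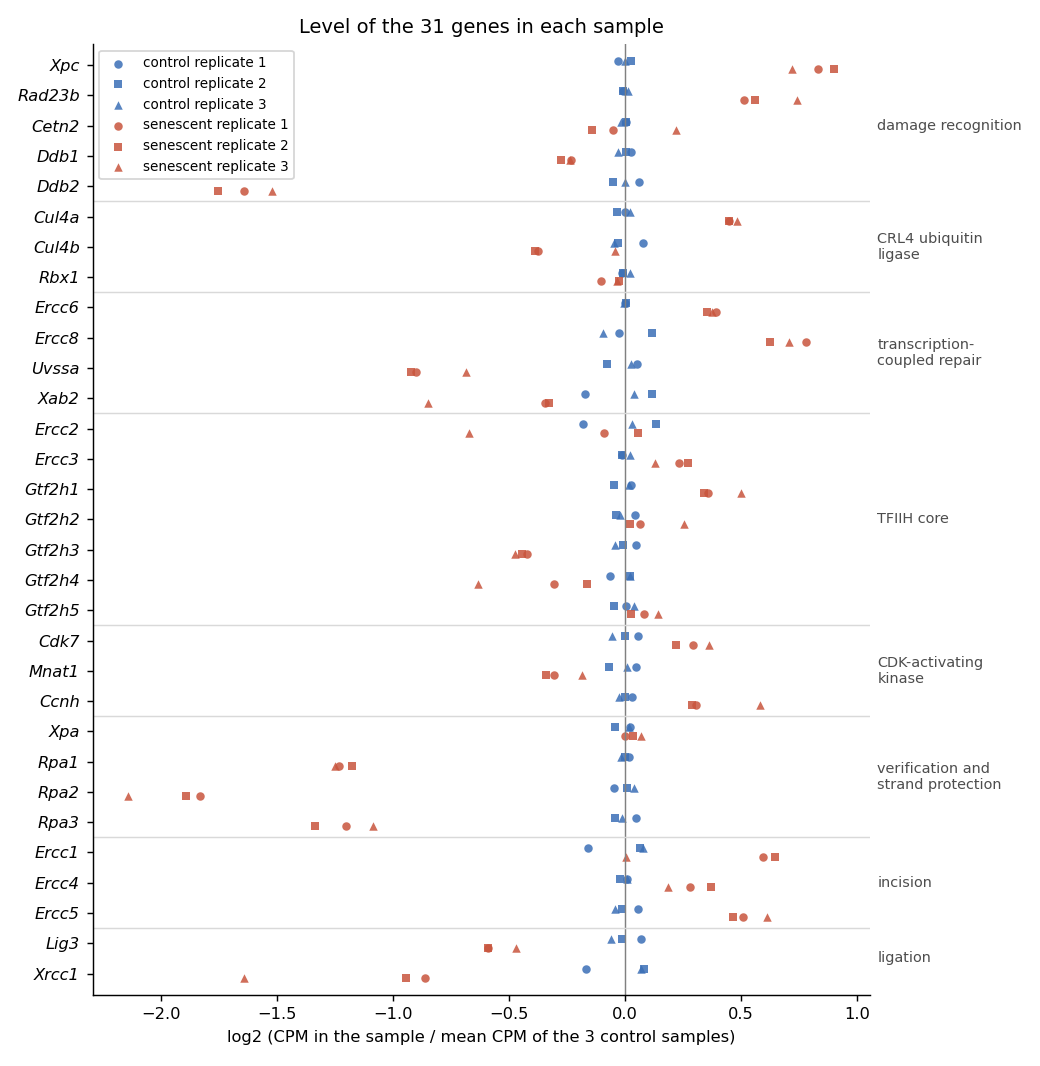
Level of each of the 31 genes in each of the 6 samples, as log2 of the CPM over the mean CPM of the 3 control samples, with genes ordered by repair step. Control samples lie close to 0, senescent samples of *Rpa1*, *Rpa2*, *Rpa3*, *Ddb2* and *Uvssa* lie to the left, those of *Xpc*, *Rad23b*, *Ercc8* and *Ercc5* to the right, and senescent replicate 3 (triangles) lies apart from the other senescent samples in *Xab2*, *Ercc2*, *Ercc1* and *Xrcc1*.

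Levels per kilobase of the exon length listed in the table spanned a wide range. *Ddb1* was highest, at 301 ± 5.83 CPM per kilobase in control and 253 ± 3.97 in senescent samples (SD, n = 3). *Rbx1* and *Rad23b* followed at 48 ± 0.593 and 40.1 ± 0.323 CPM per kilobase in control samples. At the other end stood *Ercc8*, at 0.645 ± 0.0492 CPM per kilobase in control and 1.05 ± 0.0572 in senescent samples, below *Xpc* (2.8 ± 0.0629 in control) and *Ercc4* (2.82 ± 0.0388). Neighbours in this order often did not differ beyond their spread, as with *Xpc* and *Ercc4*, *Ercc3* and *Cul4a*, or *Ccnh* and *Ercc1* in control samples. The order also rests on the listed length, which for *Cdk7* is 7595 bases where the GENCODE M21 annotation of the same assembly has 3706 bases of exons, and for *Xrcc1* 2155 where it has 5831. Listed lengths were also shorter for *Rbx1* (1655 against 4551 bases), *Ddb1* (4155 against 6409), *Ercc6* (8422 against 12851) and *Gtf2h3* (3840 against 6311). The place of *Rbx1* next to *Ddb1* thus depends on the length used. The smallest count of any of these genes in a library was 226.

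The study concerns BMAL1, a clock transcription factor known to bind the E-box letters CACGTG, so promoters were searched for them (a palindrome, read the same on both strands). RefSeq promoter windows of 300 bases, 250 before to 50 after a transcript start in GRCm38.p6, were found for 27 of the 31 genes in 28 windows. *Xpc*, *Ddb2*, *Ercc3* and *Ccnh* had no window, so their promoters were not searched for any of the letters. CACGTG was present in 8 windows (28.6%) of 7 genes, 2 of these windows being overlapping windows of *Gtf2h5* that share the same E-box. It was present in 7.15% of all 32851 windows and in 9.4% of the 14513 windows of tested genes. No binding was measured here, and a match is a description of the letters. A stretch around an E-box is shown for each of the 7 genes, with the E-box in capitals, so that the flanking bases can be compared. *Gtf2h1* held CACGTG at 2 places, of which the one before the transcript start is shown.
*Ercc6*, chr14:32513405-32513450, + strand: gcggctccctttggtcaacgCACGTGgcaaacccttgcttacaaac
*Ercc8*, chr13:108158488-108158526, + strand: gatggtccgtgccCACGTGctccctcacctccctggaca
*Cdk7*, chr13:100731017-100731062, - strand: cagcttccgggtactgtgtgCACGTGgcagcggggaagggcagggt
*Gtf2h1*, chr7:46796048-46796093, + strand: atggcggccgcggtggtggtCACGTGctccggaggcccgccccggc
*Gtf2h5*, chr17:6079711-6079756, + strand: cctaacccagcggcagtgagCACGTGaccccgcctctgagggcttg
*Rpa1*, chr11:75348426-75348471, - strand: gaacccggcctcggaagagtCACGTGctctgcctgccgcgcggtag
*Lig3*, chr11:82781068-82781108, + strand: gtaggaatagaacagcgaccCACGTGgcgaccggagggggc

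Of these 7 genes, *Ercc6*, *Ercc8*, *Cdk7* and *Gtf2h1* were higher in senescent cells, *Rpa1* and *Lig3* were lower, and *Gtf2h5* did not pass the test. The letters thus stood in promoters of genes that moved either way. The AP-1 letters TGACTCA, also searched as TGAGTCA, were found in 1 window (3.57%, against 5.2% of all windows and 4.11% of those of tested genes), that of *Gtf2h4*. The letters TTTGAA and TTCGAA of the cell cycle homology region, on both strands, were in 7.14% of the 28 windows (*Ercc5* and *Mnat1*), against 19.2% of all windows and 13.9% of those of tested genes.

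Damage recognition genes divided. *Xpc*, whose protein binds the distorted helix first in global repair, was at 15.1, 15.7 and 15.4 CPM in control replicates 1, 2 and 3, and at 27.4, 28.8 and 25.4 CPM in the senescent replicates. All 3 senescent samples were above all control samples, and the log2 fold change was 0.82 ± 0.07 (SE), or 1.77-fold (edgeR adjusted p = 3.07e-05). *Rad23b*, which stabilizes XPC, was at 229, 229 and 232 CPM in control and 328, 339 and 385 CPM in senescent samples. The groups did not overlap, and the gene rose 1.53-fold (log2 0.61 ± 0.07, edgeR adjusted p = 0.000119). *Cetn2*, the centrin of the same complex, was at 28.1 to 28.5 CPM in control and 25.7 to 33.1 CPM in senescent samples, with the log2 fold change at 0.02 (95% interval -0.21 to 0.25).

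UV-DDB, the other lesion sensor, pairs DDB2, which contacts the lesion, with DDB1, which links it to a ubiquitin ligase. *Ddb2* was at 14.8, 13.7 and 14.2 CPM in control and 4.55, 4.21 and 4.94 CPM in senescent samples. Every senescent sample was below every control sample, and *Ddb2* was 3.11-fold lower (log2 -1.64 ± 0.09, edgeR adjusted p = 1.94e-06). Exons of *Ddb2* share 652 bases (23.8%) with *Acp2* on the opposite strand, and the strand setting of the counting is not given in the sources used here, so some reads cannot be told apart. *Acp2* was at 83.5 to 87.8 CPM in control and 86.4 to 88.7 CPM in senescent samples. *Ddb1* was at 1274, 1256 and 1226 CPM in control and 1064, 1034 and 1062 CPM in senescent samples. The groups did not overlap, with a fall of 1.19-fold (log2 -0.25 ± 0.05, edgeR adjusted p = 0.00229), and the call was lost when a GC curve was taken out of each library (log2 -0.09, adjusted p = 0.0821).

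The ligase that UV-DDB recruits, CRL4, holds a CUL4 scaffold and the RING subunit RBX1 and marks histones, XPC and DDB2 with ubiquitin. Its scaffold paralogs went apart. *Cul4a* was at 126, 123 and 128 CPM in control and 172, 172 and 176 CPM in senescent samples, and *Cul4b* at 104, 96.5 and 95.2 and at 76, 75.2 and 95.7 CPM. All senescent samples were above control for *Cul4a*, which rose 1.38-fold (log2 0.46 ± 0.05, edgeR adjusted p = 9.27e-05). For *Cul4b*, senescent replicates 1 and 2 were below all controls while replicate 3 lay among them. *Cul4b* was 1.2-fold lower (log2 -0.26 ± 0.10, edgeR adjusted p = 0.0472), a call that was lost under 10 of 14 alternative settings. *Rbx1* had a log2 fold change of -0.05 (95% interval -0.18 to 0.07).

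Transcription-coupled repair genes also divided. *Ercc6*, which encodes the remodeler CSB that meets stalled polymerase, was at 31.1, 31.2 and 31 CPM in control and 40.8, 39.8 and 40.3 CPM in senescent samples. *Ercc8*, encoding the ubiquitin ligase subunit CSA, was at 4.85, 5.36 and 4.62 CPM in control and 8.5, 7.62 and 8.07 CPM in senescent samples. Neither gene's groups overlapped, and they rose 1.29-fold (log2 0.37 ± 0.06, edgeR adjusted p = 0.000489) and 1.63-fold (log2 0.70 ± 0.10, adjusted p = 0.000295). *Uvssa*, the partner that brings TFIIH to the stalled polymerase, went the other way, with 52.4, 48 and 51.5 CPM in control and 27.1, 26.7 and 31.5 CPM in senescent samples. It fell in every senescent sample, by 1.78-fold (log2 -0.83 ± 0.08, edgeR adjusted p = 5.19e-05). *Xab2*, an XPA-binding protein that also acts in splicing, was at 36.9, 45.1 and 42.7 CPM in control and 32.8, 33.2 and 23.1 CPM in senescent samples. Senescent replicate 3 was the lowest, and the log2 fold change was -0.49 ± 0.15 (edgeR adjusted p = 0.0179) with it and -0.33 (adjusted p = 0.00104) without it. The call of *Xab2* was lost without control replicate 2 (adjusted p = 0.0667) or control replicate 3 (adjusted p = 0.0556). *Xab2* shares 570 exon bases (12.2%) with *Camsap3* on the opposite strand, which was at 0.14 to 0.644 CPM in the 6 samples.

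TFIIH, which serves both repair and the start of transcription, consists of a core with the helicases XPB and XPD and of the CDK-activating kinase. Of the 7 core genes, 2 were higher, 2 lower and 3 not past the test, and no log2 fold change lay outside -0.45 to 0.40. *Ercc3*, encoding XPB, was at 55.8, 55.8 and 57.2 CPM in control and 66.1, 68 and 61.6 CPM in senescent samples, a rise of 1.16-fold with no overlap (log2 0.21 ± 0.06, edgeR adjusted p = 0.0123). This call was lost without control replicate 1 (adjusted p = 0.0519) or control replicate 2 (adjusted p = 0.0581). The scaffold gene *Gtf2h1* rose from 49.8 to 52.3 CPM in control to 65.2 to 72.8 CPM in senescent samples (log2 0.40 ± 0.06, adjusted p = 0.000731). *Gtf2h3* fell from 30.5 to 32.5 CPM to 22.6 to 23.4 CPM (log2 -0.45 ± 0.06, adjusted p = 0.00034). *Gtf2h4*, whose protein anchors XPB, was at 18 to 19.1 CPM in control and 12.1 to 16.8 CPM in senescent samples (log2 -0.35 ± 0.12, adjusted p = 0.0306), and this call was lost under 8 of 14 settings. The other core genes had intervals that included 0, with log2 fold changes of -0.21 for *Ercc2* (95% interval -0.63 to 0.22), 0.12 for *Gtf2h2* (-0.07 to 0.31) and 0.08 for *Gtf2h5* (-0.05 to 0.22). *Ercc2*, encoding XPD, shares 42.7% of its exon bases with other genes, most of them on the opposite strand.

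In the kinase module, the catalytic subunit gene *Cdk7* was at 85.6, 82.4 and 79.3 CPM in control and 101, 96 and 106 CPM in senescent samples, and the cyclin gene *Ccnh* at 24.3, 23.8 and 23.4 CPM and 29.4, 29.1 and 35.6 CPM. Both rose without overlap, by 1.22-fold and 1.32-fold (log2 0.29 ± 0.06 and 0.40 ± 0.09, edgeR adjusted p = 0.00322 and 0.00511). *Mnat1*, the assembly factor of the module, fell from 41.3, 38.1 and 40.2 CPM to 32.3, 31.5 and 35.1 CPM (log2 -0.27 ± 0.07, edgeR adjusted p = 0.00797), also with no overlap.

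RPA, the trimer that coats single-stranded DNA and positions the nucleases, had the largest decreases as a group. *Rpa1*, the large subunit gene, was at 156, 154 and 152 CPM in control and 65.4, 68 and 64.8 CPM in senescent samples. *Rpa2* was at 42.8, 44.5 and 45.4 CPM in control and 12.4, 11.9 and 10 CPM in senescent samples, and *Rpa3* at 25, 23.5 and 24 CPM and 10.5, 9.59 and 11.4 CPM. All senescent samples of all 3 genes were far below all controls. The falls were 2.33-fold for *Rpa1* (log2 -1.22 ± 0.05, edgeR adjusted p = 4.54e-07), 3.88-fold for *Rpa2* (log2 -1.95 ± 0.09, adjusted p = 8.55e-07) and 2.31-fold for *Rpa3* (log2 -1.21 ± 0.09, adjusted p = 7.79e-06). The trimer takes 1 copy of each subunit, but levels per kilobase were not equal, at 27.6, 14.8 and 21.3 CPM per kilobase for *Rpa1*, *Rpa2* and *Rpa3* in control and 11.8, 3.82 and 9.22 in senescent samples. *Xpa*, encoding the verification factor XPA, was at 9.44, 9.02 and 9.4 CPM in control and 9.29, 9.53 and 9.74 CPM in senescent samples. These ranges overlapped, and the log2 fold change was 0.04 (95% interval -0.14 to 0.21).

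The 3 RPA genes moved together, and their promoters are shown for that reason, over 120 bases upstream of the RefSeq start and ending at its last base before transcription begins. Capitals mark CCAAT or its reverse complement ATTGG, the box bound by NF-Y, and the E-box CACGTG.
*Rpa1*, chr11:75348384-75348503, - strand: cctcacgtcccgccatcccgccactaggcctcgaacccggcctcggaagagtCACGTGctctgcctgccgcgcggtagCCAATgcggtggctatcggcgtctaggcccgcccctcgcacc
*Rpa2*, chr4:132768240-132768359, + strand: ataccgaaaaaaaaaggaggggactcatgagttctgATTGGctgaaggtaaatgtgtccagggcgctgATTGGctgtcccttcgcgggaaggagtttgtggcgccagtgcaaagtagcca
*Rpa3*, chr6:8259142-8259261, - strand: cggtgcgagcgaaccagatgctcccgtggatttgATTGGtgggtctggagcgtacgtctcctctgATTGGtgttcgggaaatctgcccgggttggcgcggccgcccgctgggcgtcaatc

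Within these stretches *Rpa2* and *Rpa3* each held ATTGG at 2 places, and *Rpa1* held CCAAT once. CCAAT on either strand was present in 53.6% of the 28 windows, against 37.4% of all windows and 37.2% of those of tested genes. The E2F letters searched, TTTCCCGC, TTTCGCGC, TTTGCCGC and TTTGGCGC on both strands, were found in 1 of the 28 windows (3.57%, against 2.26% of all windows and 3.62% of those of tested genes), that of *Rbx1*. The same letters were in 41.2% of the 17 windows found for the gap filling genes that were left out. They were in 38.5% of the 13 windows of the proliferation genes, a list described below. CCAAT was in 29.4% of the gap filling windows and in 100% of the proliferation windows. Only exact matches to all these letters were counted, in every set. The stretch shown for *Rpa2* holds gcgggaag and that for *Rpa3* gttggcgc, each 1 base away from a match. The search therefore does not show that RPA promoters lack E2F sites.

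Incision was the only step in which all genes were higher. *Ercc5*, encoding the nuclease XPG that cuts on the 3′ side, was at 41.1, 39.1 and 38.3 CPM in control and 56.2, 54.6 and 60.4 CPM in senescent samples. *Ercc4*, encoding XPF of the nuclease that cuts on the 5′ side, was at 19.1, 18.7 and 19.1 CPM in control and 23.1, 24.6 and 21.6 CPM in senescent samples. Neither overlapped, and the rises were 1.44-fold (log2 0.53 ± 0.06, edgeR adjusted p = 0.000155) and 1.22-fold (log2 0.28 ± 0.07, adjusted p = 0.00894). *Ercc1*, the partner of XPF, was at 21.3, 24.9 and 25.1 CPM in control and 36, 37.3 and 23.9 CPM in senescent samples. Senescent replicates 1 and 2 were well above all controls, and replicate 3 lay among them. The log2 fold change of *Ercc1* was 0.45 ± 0.17 (edgeR adjusted p = 0.0425), a call lost under 7 of 14 settings, and 0.63 (adjusted p = 3.99e-07) without senescent replicate 3.

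Both ligation genes were lower. *Lig3*, the ligase gene, was at 87.8, 82.9 and 80.4 CPM in control and 55.5, 55.5 and 60.5 CPM in senescent samples, and *Xrcc1*, its scaffold partner, at 31.7, 37.7 and 37.4 CPM and 19.6, 18.5 and 11.4 CPM. No senescent sample reached a control sample in either gene. *Lig3* fell 1.46-fold (log2 -0.55 ± 0.06, edgeR adjusted p = 0.000125) and *Xrcc1* 2.16-fold (log2 -1.11 ± 0.19, adjusted p = 0.00119). Without senescent replicate 3, the fall of *Xrcc1* was -0.90 on the log2 scale, under 2-fold. *Lig3* shares 1826 exon bases (25.1%) with *Rffl* on the opposite strand, which was at 6.5 to 7.09 CPM in control and 11.3 to 12.5 CPM in senescent samples.

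**Figure D2:**
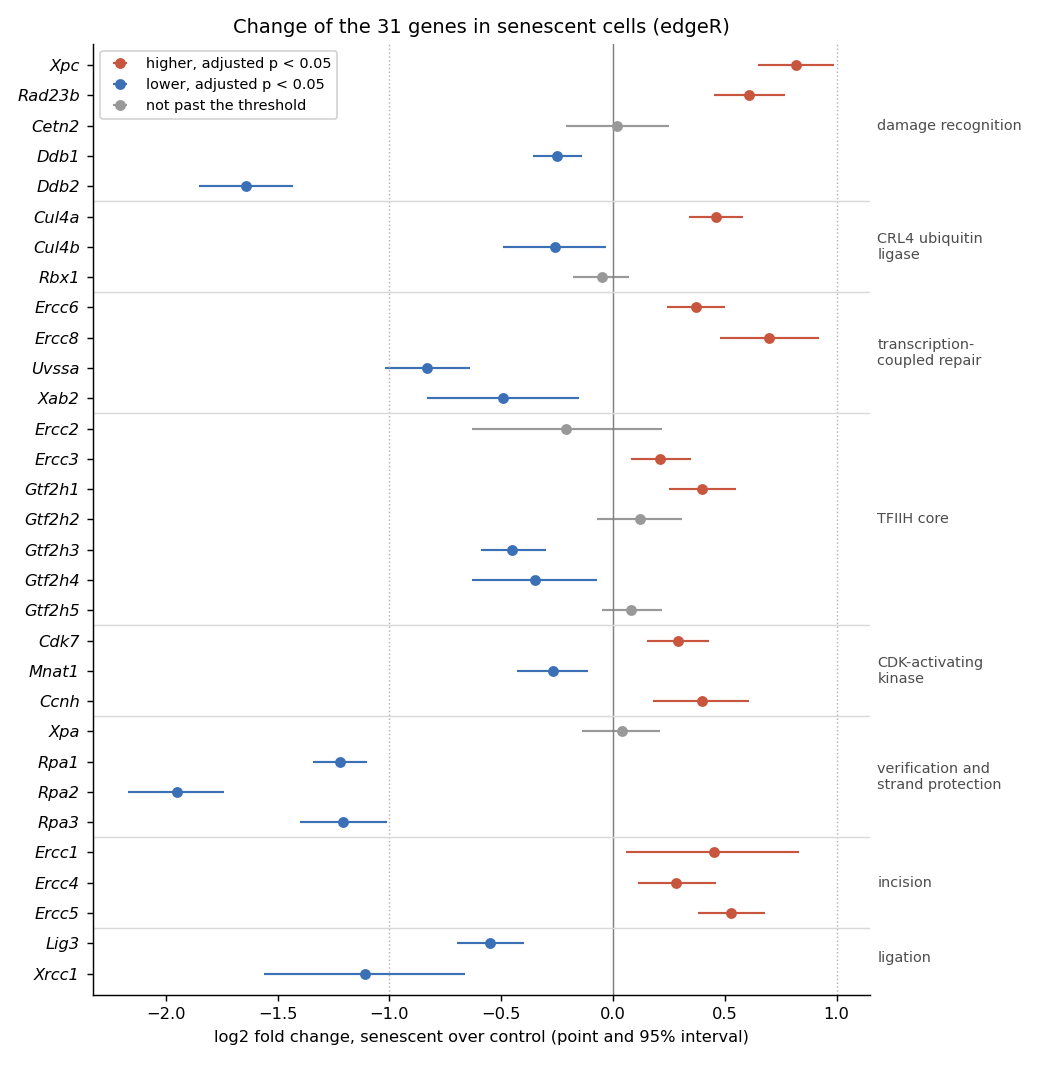
Log2 fold change of senescent over control for each gene with its 95% interval from edgeR's quasi-likelihood fit, colored by the call at an adjusted p of 0.05, with dotted lines at a 2-fold change. Only *Ddb2*, *Rpa1*, *Rpa2*, *Rpa3* and *Xrcc1* lie past a dotted line, all on the lower side, and the 3 incision genes all lie above 0.

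Partner genes were also compared within each sample as log2 ratios of counts, which need no scaling between libraries, with exact permutation tests of 3 against 3 samples, in which p cannot fall below 0.1. The log2 ratio of *Lig3* to *Lig1*, the ligase of replication, was -0.01, -0.16 and -0.17 in control and 3.05, 3.02 and 3.23 in senescent samples. The balance thus moved by 3.21 on the log2 scale, or 9.26-fold, toward *Lig3* although *Lig3* itself fell, since *Lig1* fell from 90.3 ± 2.24 to 6.66 ± 0.206 CPM (SD, n = 3). *Xrcc1* over *Lig1* rose 6.13-fold in the same way. *Ddb2* over *Ddb1* was 2.62-fold lower in senescent samples, at -7.75 to -7.94 against -6.43 to -6.52 on the log2 scale. *Cul4a* over *Cul4b* moved from 0.28, 0.35 and 0.43 to 1.18, 1.19 and 0.88, or 1.66-fold. *Ercc6* over *Ercc8* fell by 0.33 on the log2 scale. In all 5 ratios the groups did not overlap, and each exact permutation p was 0.1 (two-sided), also 0.1 after Benjamini-Hochberg adjustment over the 5.

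**Figure D3:**
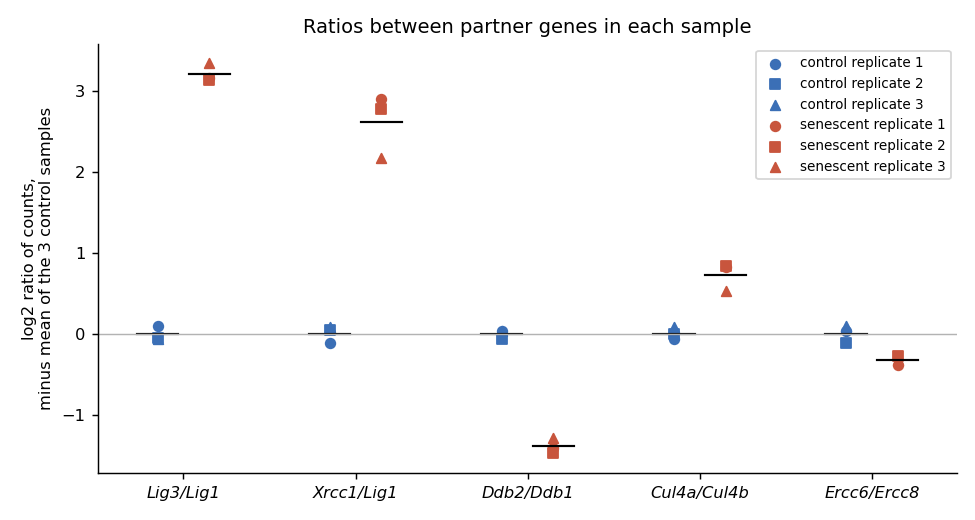
Log2 ratio of counts of 2 partner genes in each sample, shown minus the mean of the 3 control samples, with black lines at the group means. Senescent samples stand 3.21 above control for *Lig3*/*Lig1* and 1.39 below for *Ddb2*/*Ddb1*, and senescent replicate 3 stands apart in *Xrcc1*/*Lig1* and *Cul4a*/*Cul4b*.

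The deviation of senescent replicate 3 followed the GC content of the transcripts. Its log2 difference from the mean of senescent replicates 1 and 2 had a correlation with GC content of r = -0.853 across the 31 genes and -0.809 across 12869 tested genes that averaged 100 or more counts, which are genes of the same libraries and not independent replicates. In the 5 genes over 55% GC (*Xrcc1*, *Ercc2*, *Ercc1*, *Gtf2h4* and *Xab2*) the difference was -0.74 to -0.40, and in the other 26 it was -0.28 to 0.34. Control replicate 1 showed a like relation to the other controls (r = -0.736 across the 31 genes, -0.525 across the 12869). The log2 fold changes themselves had r = -0.0859 and -0.134 with GC content. With a smooth GC curve taken out of each library, an alternative chosen after seeing the data, the fold changes of the GC-rich genes moved up, to 0.76 for *Ercc1*, 0.15 for *Ercc2* (edgeR adjusted p = 0.0389), -0.08 for *Gtf2h4* (adjusted p = 0.221), -0.23 for *Xab2* and -0.76 for *Xrcc1*, all on the log2 scale. The 3 RPA genes stayed between -1.83 and -1.19, *Ddb2* at -1.70 and *Xpc* at 0.99. Such a curve also takes out any GC trend between the groups, not only that of senescent replicate 3. Without that replicate and without a curve, the GC-rich genes were at 0.63 (*Ercc1*), -0.01 (*Ercc2*), -0.22 (*Gtf2h4*), -0.33 (*Xab2*) and -0.90 (*Xrcc1*).

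**Figure D4:**
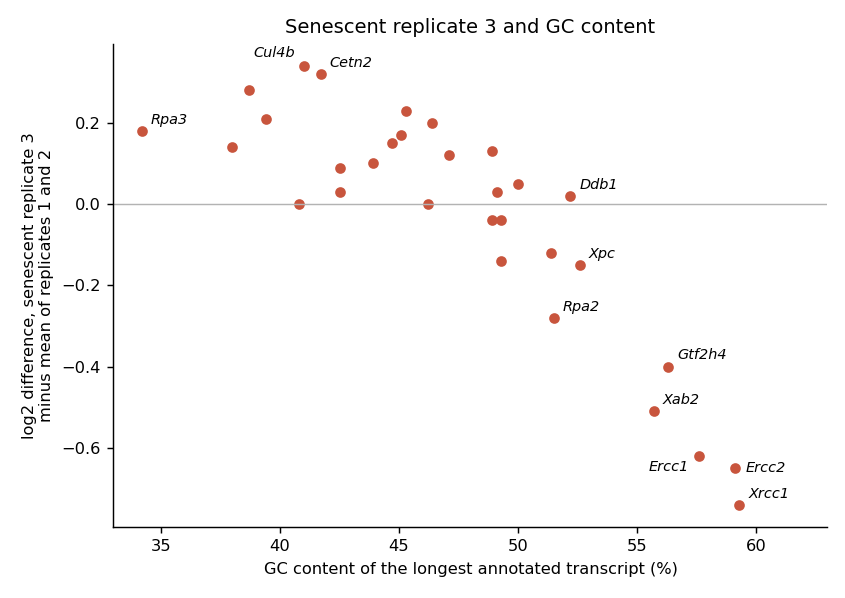
Log2 difference between senescent replicate 3 and the mean of senescent replicates 1 and 2 for each of the 31 genes, against the GC content of its longest annotated transcript in percent. Genes over 55% GC lie between -0.74 and -0.40, and the others between -0.28 and 0.34.

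Genes that act beside these 31 were counted in the same fit. Among all tested genes, 36.2% were higher and 34.1% lower, which is the background for the counts of every list below. No list was tested as a set. The 15 gap filling and ligation factors that were left out, with the replication polymerases, their clamp PCNA and its loader RFC, had a median log2 fold change of -1.69, with 12 lower and 2 higher. *Lig1* and *Pole*, the catalytic gene of polymerase epsilon, fell the most (log2 -3.76 ± 0.06 and -3.38 ± 0.09, edgeR adjusted p = 1.02e-08 and 3.77e-08), while *Pole4* rose (0.41 ± 0.08, adjusted p = 0.00293), as did *Pold4* (0.43 ± 0.14, adjusted p = 0.0229), named after its values were seen. This list ranged from -3.76 (*Lig1*) to 0.43 (*Pold4*). So wide a range held the 3 RPA genes but also genes that did not pass the test, such as *Xpa* (0.04). It therefore does not set the RPA genes apart. All 15 proliferation genes were lower (median log2 fold change -5.10), with *Mki67* falling from 589 ± 17.3 to 9.6 ± 1.49 CPM, and *Plk1*, a mitotic kinase gene, changing by -5.67 on the log2 scale.

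Among 9 accessory factors of excision repair, 3 rose and 5 fell, and the median log2 fold change was -0.42. *Polk*, a translesion polymerase gene also used for repair synthesis, rose from 32.1 ± 1.33 to 71.6 ± 8.38 CPM (log2 1.16 ± 0.09, edgeR adjusted p = 1.4e-05), and *Tcea1*, an elongation factor gene, by 0.41. *Parp1*, the gene of a sensor of strand breaks, fell from 83.9 ± 2.45 to 33.9 ± 4.5 CPM (log2 -1.31 ± 0.10, edgeR adjusted p = 1.13e-05), and the remodeler gene *Chd1l* by 0.73 on the log2 scale. The third that rose was *Usp7* (0.19 ± 0.07, adjusted p = 0.0352), which encodes a deubiquitinase. The others that fell were *Stk19* (-0.47), *Hmgn1* (-0.43) and *Elof1* (-0.42), and these 3 and *Usp7* were named after their values were seen.

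The 8 other general transcription factors, which work with TFIIH at promoters, had a median log2 fold change of 0.08, with 3 higher and 1 lower. *Gtf2a1* (log2 0.40), *Gtf2e1* (0.39) and, named after its values were seen, *Gtf2f2* (0.29) rose, and *Gtf2a2* fell (-0.30). The number of lower genes in this list was 0 with library totals, with at least 10 counts in every library and without any 1 library other than senescent replicate 3, was 2 without that replicate, and was 4 with the GC curve. The range of -0.30 to 0.40 was like that of the TFIIH core. In the COP9 signalosome and neddylation genes, which switch CRL4 off and on, 4 of 15 rose and 4 fell (median log2 fold change -0.05). *Dcun1d1* (0.53 ± 0.12) and *Cops8* (0.34 ± 0.05) rose the most, and *Cops7a* (-0.41 ± 0.12) and *Cops3* (-0.21 ± 0.07) fell the most (edgeR adjusted p = 0.00474, 0.00051, 0.0142 and 0.0264). The number of lower genes in this list went from 4 to 7 with the GC curve and to 1 with library totals alone.

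Base excision and single-strand break repair, in which LIG3 and XRCC1 also act, had 12 of 19 genes lower and 2 higher (median log2 fold change -0.41). *Neil3*, a glycosylase gene, fell from 22.3 ± 0.0957 to 0.461 ± 0.0715 CPM (log2 -5.61 ± 0.12, edgeR adjusted p = 1.56e-08), and *Mutyh* from 5.07 ± 0.905 to 0.848 ± 0.0969 CPM. *Neil2* rose from 0.986 ± 0.0759 to 2.42 ± 0.221 CPM (log2 1.29 ± 0.14), and *Polb*, the gap filling polymerase gene of this pathway, by 0.22 on the log2 scale (edgeR adjusted p = 7.01e-05 and 0.0403).

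Of 15 p53 target genes, 13 rose and 1 fell, and the median log2 fold change was 1.77. *Pmaip1* (log2 5.42 ± 0.14) and the cell cycle inhibitor gene *Cdkn1a* (2.33 ± 0.05) had the largest rises by the naming rule, and *Bbc3* fell (-0.98 ± 0.28). Among the 31 repair genes, *XPC* and *DDB2* are known as p53 targets in human cells. In these mouse cells *Xpc* rose and *Ddb2* fell.

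**Figure D5:**
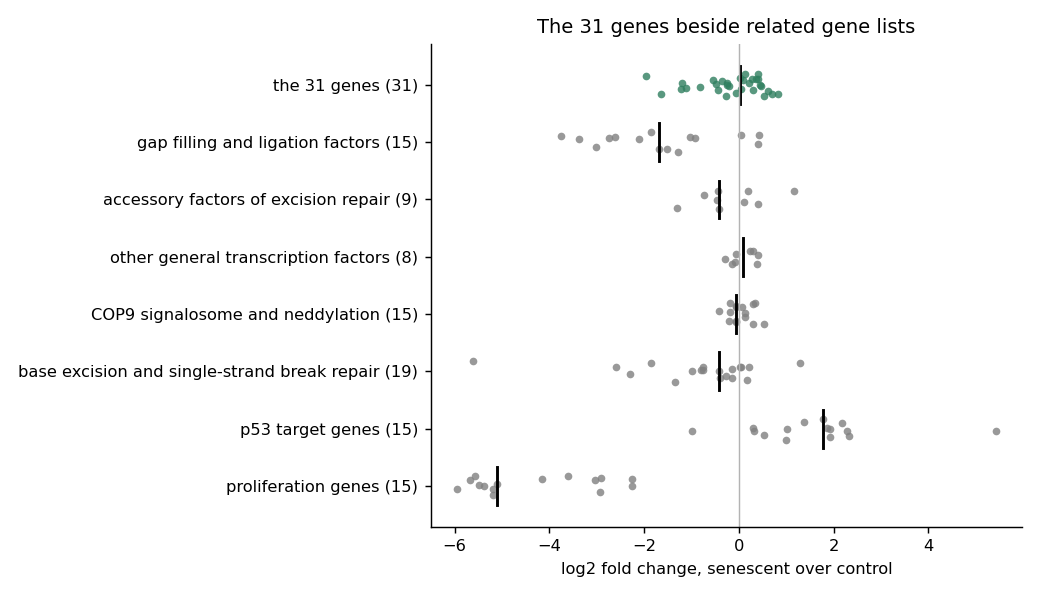
Log2 fold change of senescent over control for the 31 genes and for 7 related lists, each point 1 gene and each black line the median, with the number of genes tested in parentheses. The medians are 0.02 for the 31 genes, -1.69 for gap filling and ligation factors, 1.77 for p53 target genes and -5.10 for proliferation genes.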

How the data were processed

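RNA from 3 control and 3 senescent MAF samples was made into stranded polyadenylated libraries from 200 ng of RNA. STAR alignment to mm10 and Subread counting were run by the authors within MAPRSeq on read pairs, and the deposited counts are raw, whole counts per gene. The strand setting and the treatment of reads with several matches are not given in the sources used here, nor is whether PCR copies were kept.

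From the deposited counts, genes were kept with filterByExpr, scaled by TMM and tested in the robust quasi-likelihood framework of edgeR 4.0.16 (R 4.3.3), with group as the only term, two-sided, and Benjamini-Hochberg adjustment over all 17589 genes tested. Log2 ratios used a pseudocount of 0.5 counts. The threshold was an adjusted p of 0.05, and DESeq2 1.42.0 was an alternative. The fit was tested on simulated counts with 3 samples per group, drawn with the same spread for every gene and without a GC trend. Of 100 genes changed 2-fold it recovered 100, and of 100 changed 1.5-fold 89. There were 5 false calls among 16368 genes tested. The changed genes were drawn from genes with many counts, and all other genes were left unchanged. In the data, 70.3% of tested genes were called, so the simulation does not measure recovery or false calls under changes that broad. GC content, exon overlaps and positions came from GENCODE M21 on GRCm38, the assembly of mm10. Promoter sequences came from RefSeq (GRCm38.p6), and no window was available for *Xpc*, *Ddb2*, *Ercc3* and *Ccnh*.

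The 31 genes, the lists and the tests were chosen with earlier results of these data known. The genes named were the 31, both genes of each ratio and, from each list, up to 2 of the largest rises and 2 of the largest falls past the threshold with groups that did not overlap. A gene of the accessory list and the ratio it belonged to are not reported here. The name *Dcun1d1* occurs in more than 1 row, and the row with more counts was used. Counting error alone is small at these depths: 3 counts correspond to 0.0365 to 0.0597 CPM. Alternatives were RLE scaling, library totals, no filter, at least 10 counts in every library, DESeq2, a term for the replicate number, each library left out in turn, other call limits, a pseudocount of 5, and GC curves, which were added after seeing the data.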

Additional observations from a re-analysis of the deposited data

How the results depend on the processing

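Of the 25 genes called, 19 (10 higher, 9 lower) kept their call under all 14 other settings of the fit. The log2 ratios kept their direction with a pseudocount of 5, with each library left out in turn and with the replicate block. They were not run with the GC curve. The calls of *Ercc1*, *Cul4b*, *Gtf2h4*, *Ddb1*, *Ercc3* and *Xab2* were each lost under some settings. Of genes not called, *Cetn2* turned to -0.14 with the GC curve, with or without the replicate block, and to -0.09 without senescent replicate 3, *Ercc2* to 0.15, *Gtf2h2* to -0.08 and *Gtf2h5* to -0.04 with the GC curve, with or without the block, and *Rbx1* to 0.02 with library totals, which moved the median of all tested genes by 0.08. With the GC curve, *Cetn2* (edgeR adjusted p = 0.0206, with the block 0.0445) and *Rbx1* (-0.18, adjusted p = 0.0189 and 0.0183) were called lower and *Ercc2* higher (adjusted p = 0.0389 and 0.0425), and with library totals *Gtf2h5* was called higher (0.16, adjusted p = 0.0419). With an unadjusted p of 0.05 and a 2-fold limit, 0 of the 31 genes were higher and 5 lower. Lower general transcription factors numbered 0 with library totals or the filter of 10 counts and 4 with the GC curve, and lower COP9 and neddylation genes 1 with library totals, the filter of 10 counts or the block and 7 with the GC curve, also with the block. Higher base excision genes numbered 1 without a filter or with the block, and lower p53 targets 0 without a filter. With 1 library left out, higher members numbered 10 to 12 and lower members 10 to 13, higher gap filling factors 1 to 2, lower general transcription factors 0 to 2, lower COP9 and neddylation genes 0 to 6, higher base excision genes 1 to 3 and lower p53 targets 0 to 1, and *Cetn2* lay between -0.09 and 0.10. The cause of these moves was not tested.

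Whether replicate numbers pair the samples could not be told. Deviations from the group means correlated at -0.468, 0.359 and -0.312 between same-numbered samples over 12958 genes. Control replicate 1 and senescent replicate 3, both low in GC-rich transcripts, correlated at 0.576. Deviations within a group are also tied to each other by their shared mean, so these correlations cannot decide on pairing. With the replicate block, 11 of the 31 genes were higher and 12 lower, and *Ercc1* (adjusted p = 0.0604) and *Cul4b* (adjusted p = 0.063, edgeR) lost their call. Not every sample correlated best with its own number. With the block, the exact sign-flip permutation p of each ratio was 0.25, the smallest possible. The samples represent 1 time point and 1 kind of primary culture, and RNA levels do not measure protein or repair activity.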
